A study of Mus musculus with 15 samples.

Results

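Uhrf1, Dnmt1, Dnmt3a, Dnmt3b, Hells and Cdca7 encode the enzymes that write cytosine methylation in mouse DNA and the factors that bring them to newly replicated chromatin. The 6 genes were taken by symbol from the 13172 genes listed in the count tables, and were chosen by their symbols and by how their CPM compared over the 5 groups. All 6 are among the 12721 genes listed for every group. Because their levels in these groups took part in the choice, those levels and fold changes are given as a description, and no p-value is given for any of the 6. CPM is a gene's reads per 1000000 counted reads, here after TMM scaling, which evens out differences in composition between libraries.

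Each time DNA is copied, methylated CpG sites are left with a methyl group on the parental strand alone. Uhrf1 binds such half-methylated sites, ubiquitylates histone H3 and the replication factor Pclaf, and so recruits Dnmt1, which copies the mark onto the new strand. Hells is a chromatin remodeller of the SNF2 family that is switched on by the zinc finger protein Cdca7, and the pair opens nucleosomes so that methylation can be kept in heterochromatin. Dnmt3a and Dnmt3b place methyl groups on sites that had none. Uhrf1, Hells and Cdca7 are known as genes of proliferating cells, with Cdca7 a known target of Myc and E2F factors and Uhrf1 of E2F factors.

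The libraries came from B16.F10, a mouse melanoma cell line, kept at 1% oxygen in every group, with 3 libraries that the labels call biological replicates in each of 5 groups. Control cells were labelled wild type and untreated. NC_siRNA cells, also labelled wild type, received a negative control siRNA at 25 nM, and Hif1a_siRNA cells, labelled as a Hif-1a knockdown, received an siRNA against Hif1a at 25 nM. Dox cells were labelled wild type and treated with 0.25 µM doxorubicin, an anthracycline that intercalates into DNA and poisons topoisomerase II, for 24 h. Hif1a_siRNA_Dox cells, labelled as a Hif-1a knockdown, received the Hif1a siRNA and, 24 h later, the same dose of doxorubicin for 24 h. The series has no group with the negative control siRNA and doxorubicin together. Whether the replicates of a group came from separate cultures is not stated, and the tests below see only how far these libraries differ, which may be technical.

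The libraries held 23825110 to 28734303 counted reads. Hif1a, the siRNA target, was low in both knockdown groups: 15.9 to 18.9 CPM in Hif1a_siRNA and 11.6 to 14.2 in Hif1a_siRNA_Dox. It stood at 264 to 289 CPM in the libraries with the negative control siRNA, at 204 to 231 in Control and at 137 to 153 in Dox, 1.52-fold below Control. All 8 of 8 markers of the melanocyte lineage were listed, and their summed level was far higher with doxorubicin: 40050 to 46660 CPM in Dox and 29860 to 36730 in Hif1a_siRNA_Dox. The sum was 13510 to 14640 CPM in Control and 8347 to 9551 over both siRNA groups without the drug. Of markers of other cell types, 1 of 4 for leukocytes (Cd68), 0 of 3 for endothelium, 0 of 3 for epithelium and 1 of 3 for fibroblasts (Pdgfra) were listed. Mean Cd68 was 23.4 CPM in Control, 15.4 in NC_siRNA and 4.92 to 7.50 in the other groups, and mean Pdgfra was 0.845 to 0.963 CPM without doxorubicin, 3.804 in Dox and 8.821 in Hif1a_siRNA_Dox. Mitochondrial transcripts took 1.38% to 2.12% of reads in the 3 groups without doxorubicin and 3.38% to 5.08% in the other two. The part of these differences in the results was not tested.

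The promoters are shown because 4 of the 6 genes carry a known E2F letter sequence there. RefSeq (GRCm38.p6) gave 11 windows for the 6 genes, each of 300 bases, from 250 before to 50 after an annotated start. Searched on both strands, the E2F site letters TTTCCCGC, TTTGGCGC, TTTCGCGC or TTTGCCGC occurred in 2.26% of 32851 windows of this length, and in at least 1 window of 704 of 27025 genes (2.60%). Which start these cells use is not known from gene counts. The windows below run 5′ to 3′ along the gene, in lower case with the E2F letters in capitals: Cdca7 at chr2:72475969-72476268, plus strand; Hells at chr19:38930740-38931039, plus strand; start 2 of Uhrf1 at chr17:56304063-56304362, plus strand; and start 3 of Dnmt1 at chr9:20952574-20952873, minus strand.
Cdca7: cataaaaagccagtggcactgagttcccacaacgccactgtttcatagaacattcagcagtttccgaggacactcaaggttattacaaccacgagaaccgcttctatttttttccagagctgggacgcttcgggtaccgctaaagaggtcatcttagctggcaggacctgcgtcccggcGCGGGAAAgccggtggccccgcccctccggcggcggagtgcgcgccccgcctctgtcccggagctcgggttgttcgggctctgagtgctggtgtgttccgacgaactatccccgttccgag
Hells: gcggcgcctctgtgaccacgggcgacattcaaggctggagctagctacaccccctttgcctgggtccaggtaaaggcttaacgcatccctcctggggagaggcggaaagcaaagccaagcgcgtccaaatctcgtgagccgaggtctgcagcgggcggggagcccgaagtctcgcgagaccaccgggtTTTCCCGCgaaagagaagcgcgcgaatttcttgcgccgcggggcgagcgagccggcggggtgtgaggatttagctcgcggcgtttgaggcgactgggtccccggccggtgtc
Uhrf1: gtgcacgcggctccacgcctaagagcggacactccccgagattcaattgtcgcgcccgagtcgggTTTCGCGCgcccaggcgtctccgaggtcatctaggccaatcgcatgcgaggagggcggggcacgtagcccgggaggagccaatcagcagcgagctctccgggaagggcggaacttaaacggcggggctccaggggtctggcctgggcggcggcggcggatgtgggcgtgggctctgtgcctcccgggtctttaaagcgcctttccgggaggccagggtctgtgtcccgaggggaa
Dnmt1: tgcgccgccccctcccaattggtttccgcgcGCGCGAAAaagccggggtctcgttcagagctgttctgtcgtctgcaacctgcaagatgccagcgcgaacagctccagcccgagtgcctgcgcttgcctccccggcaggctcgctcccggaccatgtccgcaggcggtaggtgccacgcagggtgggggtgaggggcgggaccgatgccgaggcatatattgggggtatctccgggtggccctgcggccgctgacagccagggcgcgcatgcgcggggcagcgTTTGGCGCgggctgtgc

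Cdca7 and Hells each hold TTTCCCGC, Hells on the gene's strand 62 bases before the start and Cdca7 on the other strand 71 bases before it. Uhrf1 holds TTTCGCGC 185 bases before its start 2. Dnmt1 holds 2 sites around its start 3, TTTCGCGC on the other strand 219 bases before it and TTTGGCGC from base 34 of the transcript. The letters were in neither the 3 windows of Dnmt3a nor the single window of Dnmt3b. The windows printed hold 26 CpG sites in Cdca7, 34 in Hells, 33 in Uhrf1 and 33 in Dnmt1, against a median of 7 over all windows. The short core letters of a HIF site, ACGTG or GCGTG on either strand, occurred in 43.8% of all windows. They occurred 4 times in the printed window of Uhrf1, once in that of Dnmt1 and not in those of Cdca7 and Hells. Between Hif1a_siRNA and NC_siRNA the log2 difference of genes with the letters was 3.91 ± 0.15 for Cdca7 and 2.24 ± 0.08 for Uhrf1. It was 2.08 ± 0.08 for Hells and 0.73 ± 0.08 for Dnmt1. Of the genes without them, Dnmt3b gave 0.68 ± 0.25 and Dnmt3a, not called, 0.02 ± 0.09. The Dnmt3b value lost its call without NC_siRNA replicate 3 or without Hif1a_siRNA replicate 2. With the letters, Uhrf1 and Cdca7 were higher and Dnmt1 and Hells lower in Dox than in Control. Without them, Dnmt3b was higher and Dnmt3a lower. Any link between the letters and these levels was not tested. A match of letters is a description of the sequence and not a sign that a factor binds there.

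Uhrf1 lies on chromosome 17 at 56303337 to 56323486 (GRCm38.p6, gene ID 18140). Its levels were 48.15, 41.86 and 45.32 CPM in Control and 19.09, 21.24 and 19.40 in NC_siRNA. They were 94.96, 91.99 and 94.62 CPM in Hif1a_siRNA, 160.1, 173.9 and 163.6 in Dox, and 216.4, 191.7 and 188.9 in Hif1a_siRNA_Dox. The order was NC_siRNA, Control, Hif1a_siRNA, Dox and Hif1a_siRNA_Dox from lowest to highest, and no neighbouring groups overlapped. The level in Hif1a_siRNA was 4.71-fold that in NC_siRNA, a log2 difference of 2.24 ± 0.08 (SE), and 2.08-fold that in Control (1.06 ± 0.07). In NC_siRNA it was 2.27-fold lower than in Control (-1.18 ± 0.08), so the size of the difference for the Hif1a siRNA depends on which of these groups it is set against. Dox stood 3.68-fold above Control (1.88 ± 0.08), and Hif1a_siRNA_Dox stood 2.12-fold above Hif1a_siRNA (1.08 ± 0.07). In bulk RNA, fewer expressing cells and less RNA per cell cannot be told apart, for this gene and for those below.

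Dnmt1, the methyltransferase that Uhrf1 recruits, lies on chromosome 9 at 20907206 to 20959888 (gene ID 13433) and varied less. Its levels were 114.4, 103.6 and 111.3 CPM in Control, 80.3, 84.3 and 75.1 in NC_siRNA, and 129.2, 134.3 and 133.3 in Hif1a_siRNA. They were 99.1, 92.8 and 84.2 CPM in Dox and 95.9, 75.1 and 86.0 in Hif1a_siRNA_Dox. Hif1a_siRNA was highest and Control next, each apart from the others, while NC_siRNA, Hif1a_siRNA_Dox and Dox overlapped. The Hif1a siRNA stood 1.66-fold above the negative control siRNA (0.73 ± 0.08). With doxorubicin Dnmt1 was lower both without the siRNA (-0.25 ± 0.08) and after it (-0.63 ± 0.08). The first of these differences was -0.13 under upper-quartile scaling and -0.19 without Dox replicate 3, and it then missed the threshold of an adjusted p of 0.05. Upper-quartile scaling moved the median log2 difference of all genes from 0.10 to 0.22 in Dox against Control and from 0.04 to 0.19 in Hif1a_siRNA_Dox against Hif1a_siRNA.

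**Figure D1:**
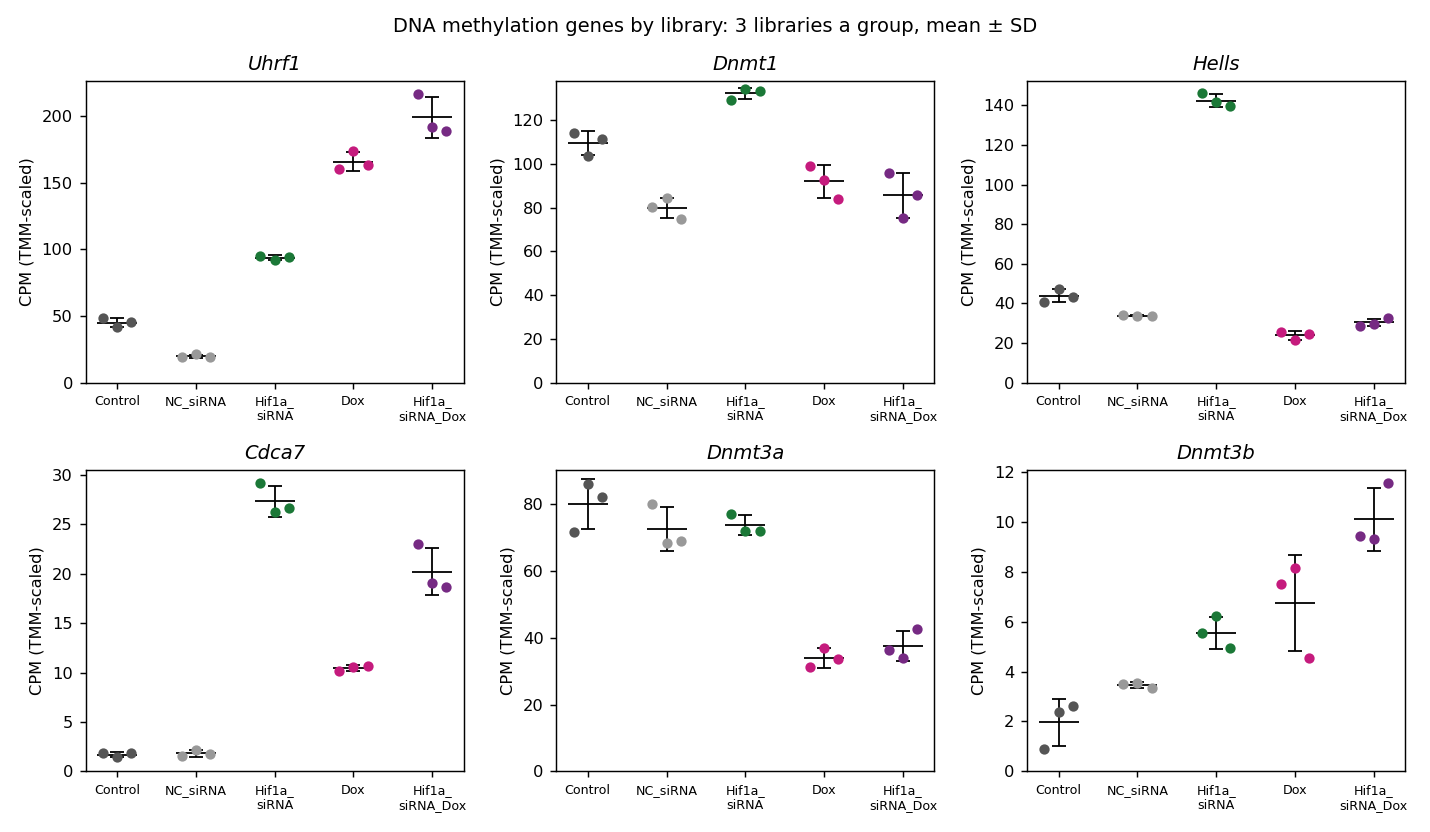
Level of each of the 6 genes in every library, in TMM-scaled CPM on a linear axis from 0; points are single libraries, horizontal bars the mean of 3 and whiskers the SD. Uhrf1 stands highest in the doxorubicin groups, Hells stands at 139 to 146 CPM in Hif1a_siRNA and at 21.3 to 47.4 elsewhere, and Dnmt3a falls into a high tier of 3 groups and a low tier of both doxorubicin groups.

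The maintenance factor and its enzyme therefore stood in different proportion from group to group. Per kilobase of annotated exon (3667 bases for Uhrf1 and 6301 for Dnmt1), the ratio of Uhrf1 to Dnmt1 within a library was 0.706 ± 0.0156 (SD, n = 3) in Control and 0.429 ± 0.0182 in NC_siRNA. It was 1.22 ± 0.0433 in Hif1a_siRNA, 3.11 ± 0.298 in Dox and 4.01 ± 0.327 in Hif1a_siRNA_Dox. By these lengths Dnmt1 exceeded Uhrf1 in all libraries of Control and NC_siRNA, and Uhrf1 exceeded Dnmt1 in all libraries of the other groups. Which gene of a pair is higher depends on the exon lengths used, since the counting annotation and the transcripts present are not known.

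Hells lies on chromosome 19 at 38930262 to 38970470 (gene ID 15201). Its levels were 41.0, 47.4 and 43.3 CPM in Control, 34.0, 33.4 and 33.7 in NC_siRNA, and 146.0, 141.8 and 139.4 in Hif1a_siRNA. They were 25.6, 21.3 and 24.8 CPM in Dox and 28.9, 29.7 and 32.6 in Hif1a_siRNA_Dox. The order from lowest was Dox, Hif1a_siRNA_Dox, NC_siRNA, Control and Hif1a_siRNA, with no overlap between neighbours. Hif1a_siRNA stood 4.22-fold above NC_siRNA (2.08 ± 0.08) and 3.24-fold above Control (1.70 ± 0.08). Dox stood 1.84-fold below Control (-0.88 ± 0.08). With doxorubicin after the Hif1a siRNA, Hells was 4.69-fold lower than with the siRNA alone (-2.23 ± 0.08), which ranked 850 of 12721 from the most negative difference.

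Cdca7, the activator of Hells, lies on chromosome 2 at 72476187 to 72486892 (gene ID 66953). It was low in Control at 1.85, 1.45 and 1.82 CPM (33 to 42 reads) and in NC_siRNA at 1.55, 2.16 and 1.75 CPM (43 to 59 reads). It stood at 29.15, 26.21 and 26.65 CPM in Hif1a_siRNA, 10.15, 10.57 and 10.68 in Dox, and 22.98, 19.06 and 18.64 in Hif1a_siRNA_Dox. Control and NC_siRNA overlapped, and every other pair of groups was apart. The Hif1a siRNA stood 15.04-fold above the negative control siRNA (3.91 ± 0.15), which ranked 5 of 12721 genes from the highest log2 difference. Against Control the level was 16.01-fold higher (4.00 ± 0.15), which ranked 2 of 12721. Dox stood 6.13-fold above Control (2.61 ± 0.16), while Hif1a_siRNA_Dox stood 1.35-fold below Hif1a_siRNA (-0.43 ± 0.12) and 1.93-fold above Dox (0.95 ± 0.12).

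Hells and its activator thus parted between Dox and Control: Cdca7 was above and Hells below its Control level in all 3 Dox libraries. Between Hif1a_siRNA_Dox and Hif1a_siRNA both were lower, by -0.43 ± 0.12 for Cdca7 and -2.23 ± 0.08 for Hells. Per kilobase of exon (2424 bases for Cdca7 and 5868 for Hells), the ratio of Cdca7 to Hells was 0.0951 ± 0.0185 (SD, n = 3) in Control and 0.131 ± 0.0237 in NC_siRNA. It was 0.465 ± 0.018 in Hif1a_siRNA, 1.07 ± 0.122 in Dox and 1.62 ± 0.279 in Hif1a_siRNA_Dox. Among these ratios the highest Control library (0.109) lay just under the lowest NC_siRNA library, and the other groups were apart from these and from each other.

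Dnmt3a lies on chromosome 12 at 3801559 to 3914443 (gene ID 13435). Its levels were 71.7, 86.2 and 82.2 CPM in Control, 80.0, 68.4 and 69.1 in NC_siRNA, and 77.1, 71.9 and 72.1 in Hif1a_siRNA. They were 31.1, 37.0 and 33.8 CPM in Dox and 36.2, 33.9 and 42.6 in Hif1a_siRNA_Dox. The 3 groups without doxorubicin overlapped, the 2 with it overlapped, and the highest library with the drug (42.6) was below the lowest without it (68.4). Dox stood 2.36-fold below Control (-1.24 ± 0.10), and Hif1a_siRNA_Dox 1.96-fold below Hif1a_siRNA (-0.97 ± 0.10). The Hif1a siRNA was within 0.02 ± 0.09 of the negative control siRNA on the log2 scale.

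Dnmt3b lies on chromosome 2 at 153649411 to 153687730 (gene ID 13436) and was the least covered beside Cdca7, with 20 to 287 reads per library. Its levels were 0.882, 2.38 and 2.64 CPM in Control, 3.49, 3.55 and 3.35 in NC_siRNA, and 5.53, 6.22 and 4.93 in Hif1a_siRNA. They were 7.53, 8.14 and 4.57 CPM in Dox and 9.43, 9.32 and 11.6 in Hif1a_siRNA_Dox. The order from lowest was Control, NC_siRNA, Hif1a_siRNA, Dox and Hif1a_siRNA_Dox, and only Hif1a_siRNA and Dox overlapped. Dox stood 3.43-fold above Control (1.78 ± 0.27). Control replicate 1, with 20 reads, was the lowest library of all, and without it the difference of NC_siRNA from Control went from 0.81 ± 0.28 to 0.46 and missed the threshold. The difference between Hif1a_siRNA and NC_siRNA (0.68 ± 0.25) also missed it without NC_siRNA replicate 3 (0.66) or without Hif1a_siRNA replicate 2 (0.59).

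The 2 enzymes for new methylation therefore stood closer to each other with doxorubicin. Per kilobase of exon (9913 bases for Dnmt3a and 4326 for Dnmt3b), Dnmt3a stood 21.6 ± 12.1 times (SD, n = 3) above Dnmt3b in Control, with 35.5, 15.8 and 13.6 in the single libraries. The ratio was 9.15 ± 0.811 in NC_siRNA and 5.84 ± 0.703 in Hif1a_siRNA. With doxorubicin it was 2.34 ± 0.776 in Dox and 1.63 ± 0.0459 in Hif1a_siRNA_Dox. By these exon lengths Dnmt3a remained the higher of the pair in all 15 libraries.

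**Figure D2:**
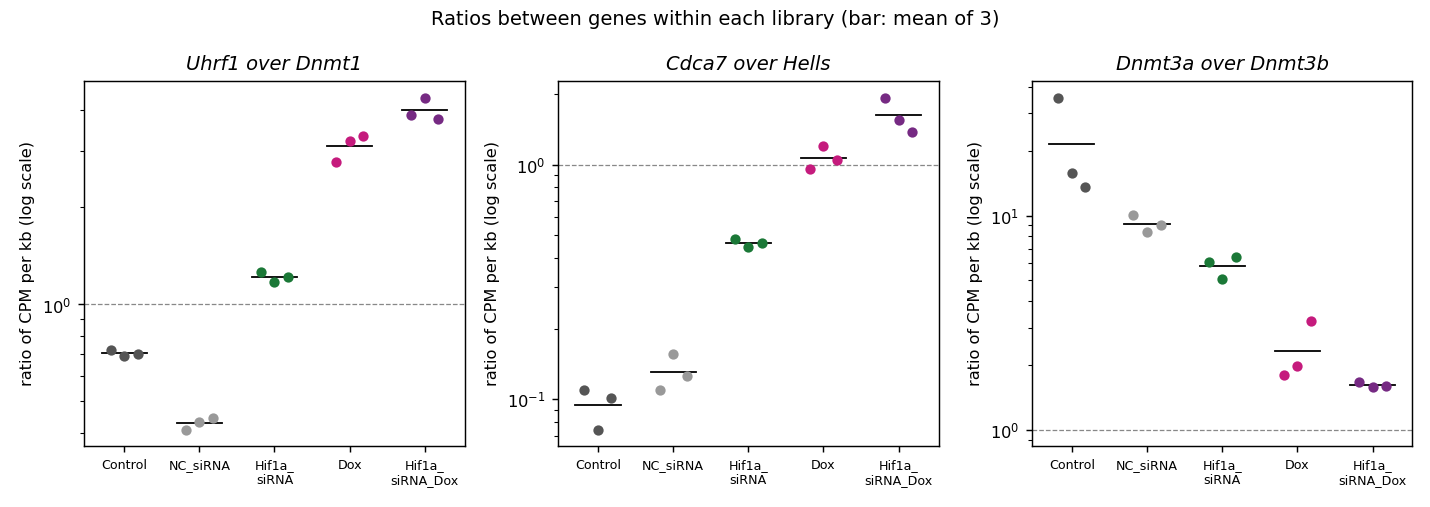
Ratio between paired genes within each library, from CPM per kilobase of annotated exon, on a log axis; points are libraries, black bars the mean of 3, and the dashed line marks equal levels. Uhrf1 over Dnmt1 and Cdca7 over Hells are highest and Dnmt3a over Dnmt3b lowest in the doxorubicin groups.

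In counts, set against the share of all genes called by edgeR at an adjusted p under 0.05, which is large in this series, the comparisons ran as follows. Between Hif1a_siRNA and NC_siRNA, 5 of the 6 genes were called higher and 0 lower (Dnmt3a was not called), while 36.4% of all genes were called higher and 31.2% lower; the median log2 difference was 1.40 over the 6 and 0.06 over all genes. Between NC_siRNA and Control 1 was higher (Dnmt3b) and 3 lower (Uhrf1, Dnmt1 and Hells), beside 33.1% and 33.7% of all genes. Between Hif1a_siRNA and Control 5 were higher and 0 lower, beside 40.2% and 34.2%. These comparisons share the Control, NC_siRNA and Hif1a_siRNA libraries with one another.

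Between Dox and Control, Uhrf1, Dnmt3b and Cdca7 were called higher and Dnmt1, Dnmt3a and Hells lower, beside 43.9% of all genes higher and 39.8% lower. Between Hif1a_siRNA_Dox and Hif1a_siRNA 2 were higher (Uhrf1 and Dnmt3b) and 4 lower, beside 42.6% and 41.6%. Between Hif1a_siRNA_Dox and Dox 4 were higher and 0 lower (Dnmt1 and Dnmt3a were not called), beside 21.5% and 20.7%. Of these 4, Dnmt3b (0.58 ± 0.23) lost its call with a replicate block, with upper-quartile factors, without Dox replicate 1 or 3, and without any 1 Hif1a_siRNA_Dox library, and its value went to 0.36 without Dox replicate 3. The difference between the doxorubicin effect after the Hif1a siRNA and the effect without it was called negative for 5 genes and positive for 0, beside 26.3% of all genes positive and 32.3% negative. That difference was -3.05 ± 0.20 for Cdca7, which ranked 14 of 12721 from the most negative. It was -1.35 ± 0.12 for Hells, -0.92 ± 0.35 for Dnmt3b, -0.79 ± 0.10 for Uhrf1, -0.37 ± 0.12 for Dnmt1 and, not called, 0.26 ± 0.14 for Dnmt3a. For Dnmt3b it went to -0.57 and missed the threshold without Control replicate 1. These counts are descriptions, since the choice of the 6 genes used the same groups.

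**Figure D3:**
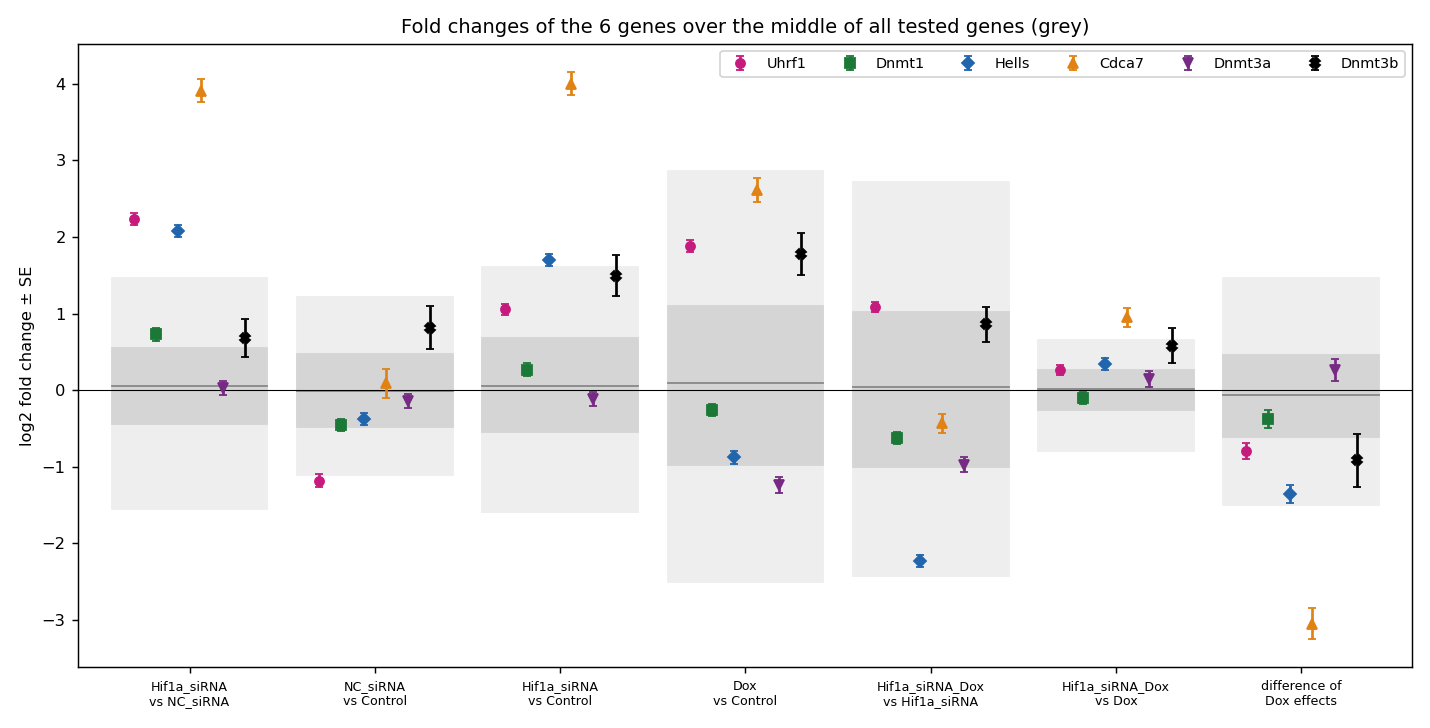
Log2 fold change of each of the 6 genes in the 7 comparisons, with whiskers of 1 SE; dark and light grey boxes hold the middle 50% and 90% of all 12721 genes, and the grey line their median. Cdca7 lies far above the boxes in both comparisons of the Hif1a siRNA without drug and far below them in the difference of doxorubicin effects.

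Genes of DNA replication moved in the same groups. Of 26 S-phase genes, 23 rose and 1 fell between Hif1a_siRNA and NC_siRNA, beside 36.4% of all genes called higher and 31.2% lower. Between NC_siRNA and Control 4 rose and 19 fell, beside 33.1% and 33.7%. Between Dox and Control 19 rose and 4 fell, beside 43.9% and 39.8%. Hif1a_siRNA_Dox against Hif1a_siRNA gave 14 that rose and 9 that fell, nearer to the shares of all genes (42.6% and 41.6%). Their summed level was lowest in NC_siRNA (565.3 to 592.9 CPM), then Control (807.5 to 816.3), then Hif1a_siRNA (1523 to 1562), and overlapped between Dox (1745 to 1838) and Hif1a_siRNA_Dox (1743 to 1852). Uhrf1 followed the order of these sums except that it separated the 2 doxorubicin groups. Hells followed the order over the groups without doxorubicin, with means of 33.7 CPM in NC_siRNA, 43.9 in Control and 142.4 in Hif1a_siRNA. It was lowest in the 2 doxorubicin groups, with means of 23.9 CPM in Dox and 30.4 in Hif1a_siRNA_Dox. The part of this in the levels of the 6 genes was not tested.

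Partners of the maintenance step were examined next, from a list of 16 genes of which 14 were tested. Between Hif1a_siRNA and NC_siRNA 8 rose and 2 fell, where 36.4% of all genes were called higher and 31.2% lower, and the median log2 difference was 0.28 against 0.06 over all genes. The 2 that fell were 4 in a fit of only these 2 groups, and 1 without NC_siRNA replicate 1 or without any 1 Hif1a_siRNA library. Pclaf, the PCNA-bound protein that Uhrf1 ubiquitylates, rose by 2.35 ± 0.10 (edgeR adjusted p = 8.52e-16), from a mean of 15.6 to 79.6 CPM. Lig1, the DNA ligase of replication that also draws Uhrf1 to nascent DNA, rose by 1.60 ± 0.08 (edgeR adjusted p = 1.69e-14), and Pcna, the sliding clamp, by 1.59 ± 0.09 (edgeR adjusted p = 1.57e-13). In NC_siRNA all 3 of these were called lower than in Control, where Uhrf1 was lower too: the log2 difference was -1.24 ± 0.10 for Pclaf, -0.70 ± 0.08 for Lig1 and -0.84 ± 0.09 for Pcna.

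Between Dox and Control 8 of the 14 partners rose and 5 fell, where 43.9% of all genes were called higher and 39.8% lower. Lig1 rose by 2.61 ± 0.08 (edgeR adjusted p = 5.96e-19), from a mean of 43.5 to 266.1 CPM, and Pclaf by 1.62 ± 0.09 (edgeR adjusted p = 7.72e-14). Hdac2, a histone deacetylase found with Dnmt1, fell by 2.00 on the log2 scale (SE 0.09, edgeR adjusted p = 2.76e-16). Between Hif1a_siRNA_Dox and Hif1a_siRNA 7 rose and 7 fell, beside 42.6% of all genes called higher and 41.6% lower. Hdac2 fell by 1.92 (edgeR adjusted p = 5.32e-16) and its close relative Hdac1 rose by 1.59 ± 0.08 (edgeR adjusted p = 1.70e-14). Smchd1, a protein of the inactive X chromosome, fell by 2.04 (edgeR adjusted p = 6.04e-14), and its mean levels were 156.1 CPM in Hif1a_siRNA and 38.1 in Hif1a_siRNA_Dox.

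**Figure D4:**
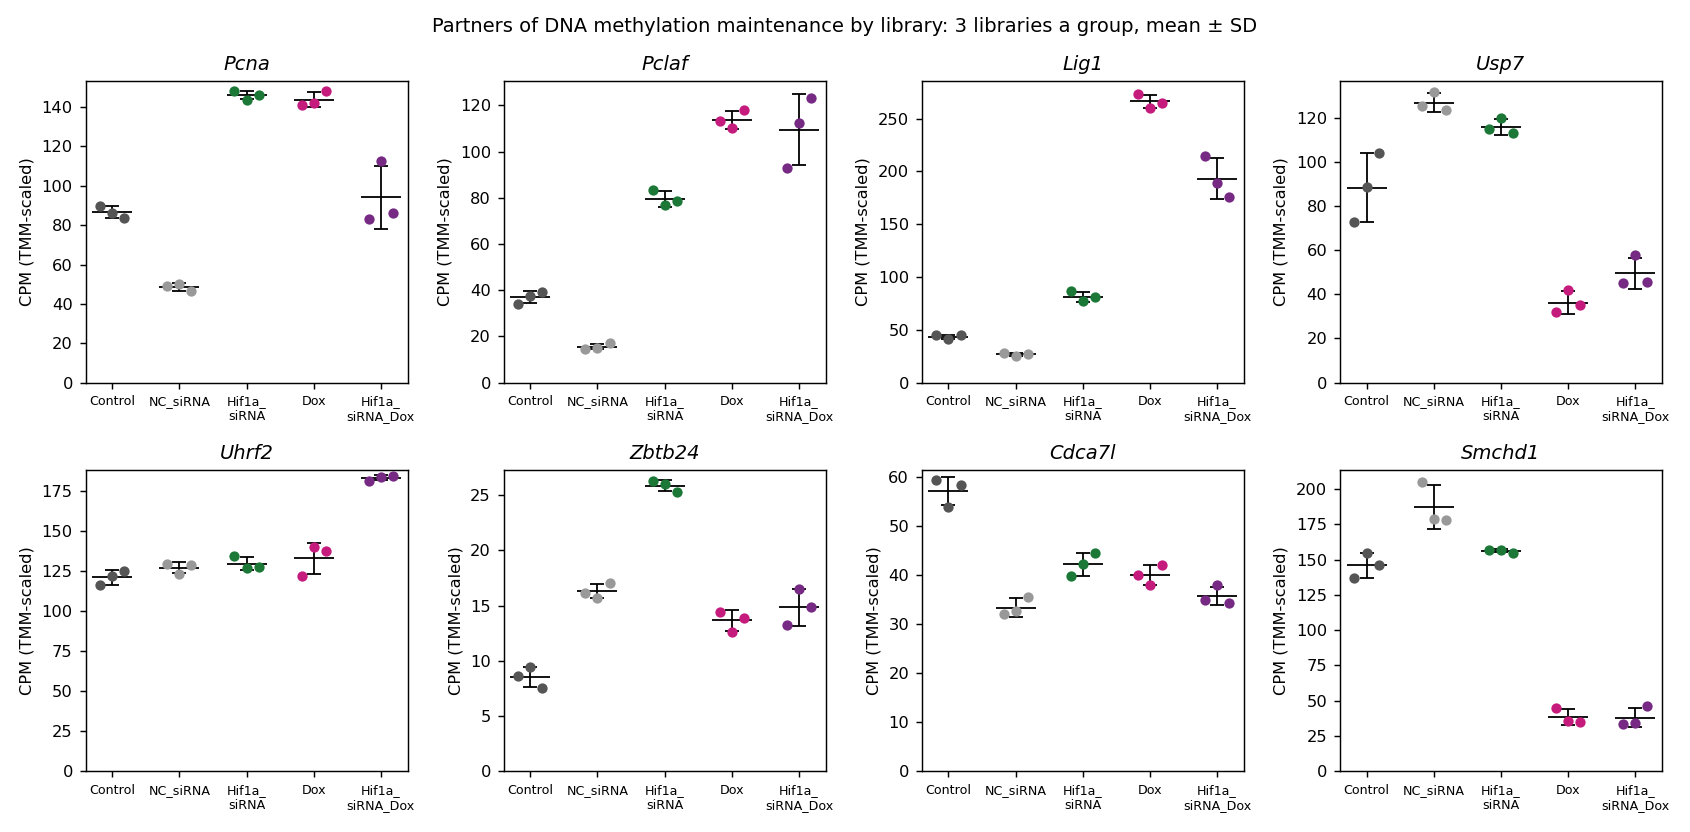
Level of 8 partners of DNA methylation maintenance in every library, in TMM-scaled CPM on a linear axis from 0, with the mean of 3 libraries and the SD. Pclaf and Lig1 are lowest in NC_siRNA and highest in the doxorubicin groups, while Usp7 and Smchd1 are low in both doxorubicin groups.

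A few relatives of the 6 genes, chosen after their values were seen, are given for comparison. Zbtb24, an activator of Cdca7 transcription, had means of 25.9 CPM in Hif1a_siRNA, 16.3 in NC_siRNA, 14.9 in Hif1a_siRNA_Dox, 13.7 in Dox and 8.53 in Control. Zbtb24 was highest in the group where Cdca7 was highest. Dox stood above Control for Zbtb24 (0.68 ± 0.12) and for Cdca7 (2.61 ± 0.16). Hif1a_siRNA_Dox stood below Hif1a_siRNA for both (-0.80 ± 0.11 and -0.43 ± 0.12). Set against NC_siRNA the genes differed: in both doxorubicin groups the mean of Zbtb24 lay below that in NC_siRNA. Hif1a_siRNA_Dox replicate 2, at 16.53 CPM, lay above that NC_siRNA mean. Cdca7 had means of 10.5 CPM in Dox and 20.2 in Hif1a_siRNA_Dox against 1.82 in NC_siRNA. Cdca7l, the paralogue of Cdca7, stood highest in Control at 57.1 CPM and lay between 33.4 and 42.2 CPM in the other groups. Uhrf2, the paralogue of Uhrf1, had means of 121.0 to 132.8 CPM in 4 groups and 183.0 in Hif1a_siRNA_Dox. Usp7, which removes ubiquitin from Uhrf1 and Dnmt1, had means of 88.3 to 126.7 CPM without doxorubicin, 36.3 in Dox and 49.4 in Hif1a_siRNA_Dox.

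Genes of the proteins that read methylated CpG, listed with relatives such as Mbd3, Mbd5 and Mbd6 that share the domain but bind the mark weakly or not at all, were mostly lower with doxorubicin. Of 10 genes, all tested, 9 fell and 1 rose (Zbtb38) between Dox and Control, beside 39.8% of all genes called lower and 43.9% higher. The median log2 difference was -1.10 against 0.10 over all genes. Between Hif1a_siRNA_Dox and Hif1a_siRNA 7 fell and 2 rose, beside 41.6% of all genes called lower and 42.6% higher. Mbd2, a methyl-CpG reader of the NuRD complex, fell by 1.76 between Dox and Control (SE 0.08, edgeR adjusted p = 1.69e-15) and Mbd5 by 1.75 (edgeR adjusted p = 9.28e-14). After the Hif1a siRNA, levels with doxorubicin were lower for Mbd2 (-1.83 ± 0.08, edgeR adjusted p = 5.82e-16), Mbd5 (-2.18 ± 0.10, edgeR adjusted p = 1.82e-15) and Zbtb33, also called Kaiso (-3.17 ± 0.16, edgeR adjusted p = 1.88e-13). Between Hif1a_siRNA and NC_siRNA 1 rose and 4 fell, beside 36.4% of all genes called higher and 31.2% lower. Mbd2 rose by 0.73 (edgeR adjusted p = 1.43e-08). Mbd3 fell by 0.99 (edgeR adjusted p = 1.26e-10) and Zbtb4 fell by 1.96 (edgeR adjusted p = 2.68e-09). Zbtb4 stood at a mean of 17.3 CPM in NC_siRNA, 4.25 in Control and 4.44 in Hif1a_siRNA, so that against Control the Hif1a siRNA gave 0.06 ± 0.20 (edgeR adjusted p = 0.779). The 4 that fell were 7 in a fit of only these 2 groups, and 2 without NC_siRNA replicate 2 or without Hif1a_siRNA replicate 1.

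Of the genes that oxidise or remove 5-methylcytosine, 9 of 10 were tested. Between Hif1a_siRNA and NC_siRNA 2 rose and 6 fell, beside 36.4% of all genes called higher and 31.2% lower. Tet1, a dioxygenase that starts the removal, fell by 3.55 (SE 0.16, edgeR adjusted p = 5.84e-15), from a mean of 40.7 to 3.48 CPM, but with doxorubicin the siRNA gave 0.20 ± 0.14 (edgeR adjusted p = 0.263). Tet1 rose by 2.60 ± 0.16 between Hif1a_siRNA_Dox and Hif1a_siRNA (edgeR adjusted p = 4.32e-13). Tet2 fell by 1.63 between Hif1a_siRNA and NC_siRNA (edgeR adjusted p = 5.11e-07), and Gadd45a, a stress-induced adaptor, rose by 1.13 ± 0.09 (edgeR adjusted p = 1.55e-10). Between Dox and Control 3 rose and 4 fell, beside 43.9% of all genes called higher and 39.8% lower. Gadd45a fell by 2.42 (edgeR adjusted p = 1.31e-16) and Gadd45b rose by 1.69 (edgeR adjusted p = 3.25e-13). The uracil glycosylase Smug1 rose by 1.63 (edgeR adjusted p = 5.35e-14). Between Hif1a_siRNA_Dox and Hif1a_siRNA 4 rose and 3 fell, beside 42.6% of all genes called higher and 41.6% lower. Gadd45b rose by 4.19 ± 0.12 (edgeR adjusted p = 2.49e-19) and Gadd45g by 3.52 ± 0.17 (edgeR adjusted p = 2.05e-15). Gadd45a fell by 2.76 (edgeR adjusted p = 1.45e-17).

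Of the genes that supply methyl groups through the folate and methionine cycles, 11 of 13 were tested. Between Hif1a_siRNA and NC_siRNA 6 rose and 1 fell, beside 36.4% of all genes called higher and 31.2% lower. Shmt1 and Shmt2, which feed serine carbon into folate, rose by 2.74 ± 0.17 (edgeR adjusted p = 8.97e-13) and 1.55 ± 0.07 (edgeR adjusted p = 1.18e-14), and the methionine synthase Mtr rose by 1.86 ± 0.10 (edgeR adjusted p = 1.63e-13). Between Dox and Control 6 rose and 3 fell, beside 43.9% of all genes called higher and 39.8% lower. Shmt1 rose by 3.89 ± 0.16 (edgeR adjusted p = 1.13e-16) and Mthfd1 by 2.33 ± 0.10 (edgeR adjusted p = 2.09e-16). Mtrr, which reactivates Mtr, rose by 2.26 ± 0.12 (edgeR adjusted p = 1.75e-14). Between Hif1a_siRNA_Dox and Hif1a_siRNA 8 rose and 3 fell, beside 42.6% of all genes called higher and 41.6% lower. Mtrr rose by 1.20 ± 0.11 (edgeR adjusted p = 2.30e-10) and Mthfd1 by 0.98 ± 0.09 (edgeR adjusted p = 5.46e-10). Ahcy, which clears the by-product of methylation, rose by 0.92 ± 0.07 (edgeR adjusted p = 3.31e-11). Over these 4 lists together, 44 genes were tested. Between Hif1a_siRNA and NC_siRNA 17 rose and 13 fell, where 36.4% of all genes were called higher and 31.2% lower. Between Dox and Control 18 rose and 21 fell, beside 43.9% and 39.8% of all genes. Between Hif1a_siRNA_Dox and Hif1a_siRNA 21 rose and 20 fell, beside 42.6% and 41.6%. These pooled counts lay near the shares of all genes. The same shares of all genes apply to the counts of every single list in these comparisons.

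**Figure D5:**
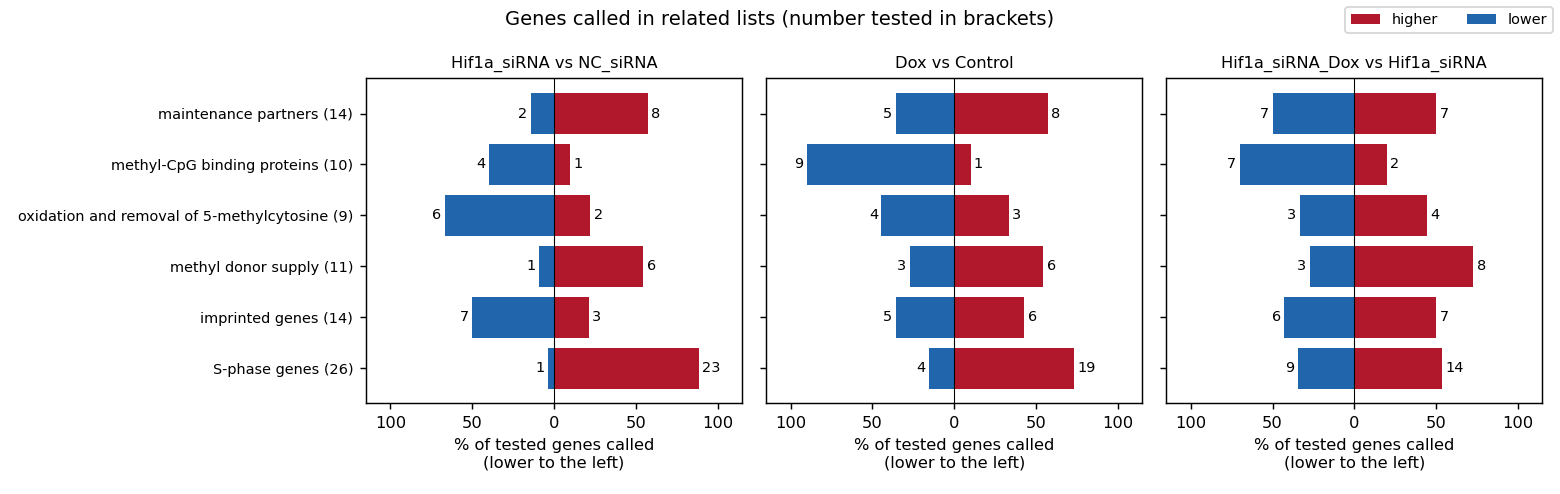
Share of the tested genes of each list that edgeR called higher (right, red) or lower (left, blue) in 3 comparisons; the numbers are counts of genes. Methyl-CpG binding proteins were called lower in 9 of 10 cases between Dox and Control, and S-phase genes higher in 23 of 26 between Hif1a_siRNA and NC_siRNA.

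Imprinted genes are genes whose parental copies are told apart by DNA methylation, and many germline genes are silenced by it in body cells, so both were listed beside the 6 genes; methylation itself was not measured here. Of 28 imprinted genes 15 were listed for at least 1 group and 14 were tested. Between Hif1a_siRNA and NC_siRNA 3 rose and 7 fell, beside 36.4% of all genes called higher and 31.2% lower. Cdkn1c fell by 2.86 (edgeR adjusted p = 1.38e-10) and Igf2r by 1.42 (edgeR adjusted p = 7.78e-09). Inpp5f fell by 1.10 (edgeR adjusted p = 1.14e-11). Against Control the Hif1a siRNA gave -2.54 ± 0.23 for Cdkn1c (edgeR adjusted p = 1.07e-09), -0.14 ± 0.12 for Igf2r (edgeR adjusted p = 0.298) and -0.23 ± 0.08 for Inpp5f (edgeR adjusted p = 0.00947). NC_siRNA itself stood above Control by 1.28 ± 0.12 for Igf2r and 0.87 ± 0.08 for Inpp5f. Igf2r shares its locus with the antisense gene Airn. Airn was counted at group means of 0.466 to 1.13 CPM, and Igf2r at 99.7 to 266.4. Since it is not stated whether counting used strand, reads from where they overlap cannot be told apart. Between Dox and Control 6 of 14 rose and 5 fell, close to the 43.9% and 39.8% of all genes. Peg10, a retrotransposon-derived gene expressed from the paternal copy, rose by 4.26 ± 0.13 (edgeR adjusted p = 2.03e-16), from a mean of 39.6 to 758.1 CPM, and its neighbour Sgce rose by 1.24 ± 0.07 (edgeR adjusted p = 2.35e-14). Ube3a, a ubiquitin ligase imprinted in neurons, fell by 2.64 (edgeR adjusted p = 6.72e-19).

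Between Hif1a_siRNA_Dox and Hif1a_siRNA 7 imprinted genes rose and 6 fell, beside 42.6% of all genes called higher and 41.6% lower. Sgce was higher by 1.49 ± 0.07 (edgeR adjusted p = 6.52e-16) and Gnas by 1.49 ± 0.08 (edgeR adjusted p = 1.56e-14). Ube3a was lower (-3.30 ± 0.08, edgeR adjusted p = 2.69e-20). Mest, the imprinted gene listed but not tested with the others because the NC_siRNA table does not list it, is named after its values were seen. It stood at 0.970, 0.397 and 0.606 CPM in Control (9 to 22 reads) and 1.18, 1.60 and 1.08 in Hif1a_siRNA, and at 74.2, 92.9 and 92.9 CPM in Dox and 123.1, 117.6 and 102.8 in Hif1a_siRNA_Dox. In a fit of only the Dox and Control libraries, Mest rose by 6.93 ± 0.19 on the log2 scale (edgeR adjusted p = 3.35e-13), and in a fit of only Hif1a_siRNA_Dox and Hif1a_siRNA it rose by 6.46 ± 0.14 (edgeR adjusted p = 1.57e-12). Mest was therefore high in all 6 libraries with doxorubicin and at 0.397 to 1.60 CPM in the 6 libraries listed without it.

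Of 20 germline genes only 4 were listed, and 1 of these, Hspb2, is a small heat shock protein of muscle. Brdt, a bromodomain protein of the testis, rose by 2.07 ± 0.18 between Dox and Control (edgeR adjusted p = 1.88e-10), from a mean of 2.00 to 8.42 CPM, and by 1.77 ± 0.17 between Hif1a_siRNA_Dox and Hif1a_siRNA (edgeR adjusted p = 1.03e-09). It rose by 1.01 ± 0.20 between Hif1a_siRNA and NC_siRNA (edgeR adjusted p = 9.92e-05), but Hif1a_siRNA against Control gave 0.27 ± 0.19 (edgeR adjusted p = 0.209). The helicase Ddx25 fell by 1.09 with the Hif1a siRNA (edgeR adjusted p = 6.95e-09) and by 1.00 with doxorubicin (edgeR adjusted p = 9.04e-09), but rose by 0.39 with doxorubicin after the siRNA (edgeR adjusted p = 0.00252). Hspb2 fell in the same 3 comparisons, by 1.01 (edgeR adjusted p = 4.89e-09), 1.16 (edgeR adjusted p = 2.63e-10) and 0.39 (edgeR adjusted p = 0.0016). Ddx4, the last of the 4, is given to complete the list. It rose by 1.46 ± 0.27 between Dox and Control (edgeR adjusted p = 2.89e-05), from a mean of 1.89 to 5.23 CPM. It rose by 0.69 ± 0.28 between Hif1a_siRNA and NC_siRNA (edgeR adjusted p = 0.0316), but Hif1a_siRNA against Control gave 0.40 ± 0.28 (edgeR adjusted p = 0.199). Between Hif1a_siRNA_Dox and Hif1a_siRNA it gave 0.53 ± 0.26 (edgeR adjusted p = 0.0616). The other 16 genes were not listed for any group.

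Genes whose pattern was most like each of the 6 were taken by Pearson's r of log2 CPM over the 15 libraries, which share their groups, so r mostly reflects the 5 group means. For Uhrf1 they were Ercc6l (0.996), Pabpc4 (0.994) and Gtse1 (0.993). For Dnmt1 the r values were lower, at 0.970 for Ncapd3, 0.953 for Pla2g2e and 0.948 for Micu3. For Hells they were Wdr75 (0.991), Rabep1 (0.990) and Nup160 (0.985), and for Cdca7 they were Shq1 (0.995), Ints15 (0.981) and Kctd20 (0.980). For Dnmt3a they were Akap9 (0.992), Gsk3b (0.989) and Wwp1 (0.988), and for Dnmt3b they were Dennd11 (0.964), Phlpp2 (0.953) and Cep85l (0.952). No gene stood among the 3 for more than 1 of the 6, nor did any of the 6 stand among the 3 for another.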

How the data were processed

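RNA from 15 libraries of B16.F10 cells was sequenced after TruSeq stranded mRNA preparation, per the labels' protocols. The deposited values are raw read counts per gene; the submitters' processing notes list StringTie 2.1.3b, HISAT2 2.1.0 and Bowtie2 2.3.4.1, the read tools Trimmomatic 0.38 and FastQC 0.11.7, and the mm10 build, without saying what each did. The annotation and the counting settings are not given in the sources used here.

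Each group has its own list of genes, so the 451 genes missing from at least 1 group stayed out of the joint fit, and 12721 were tested. Blank symbols were filled by gene ID from RefSeq for 1491 genes. Counts were fitted in edgeR 4.0.16 (R 4.3.3) with TMM scaling, a group term, robust quasi-likelihood dispersions and two-sided F tests on 10 residual degrees of freedom, with Benjamini-Hochberg adjustment over all 12721 genes within each of 7 comparisons and a threshold of 0.05. SE is the absolute log2 fold change over the square root of F. The low-count filter (10 reads, total of 15) removed 0 genes, and the common biological coefficient of variation was 0.0907. Depth was 23825110 to 28734303 counted reads, so counting error weighs more on the low counts of Dnmt3b and Cdca7. Replicates of a group differed by more than counting noise in every pair (chi-square per degree of freedom 3.56 to 34.5).

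The 6 genes and all gene lists were chosen with earlier results of these data known. Named genes were the 6 and Hif1a, up to 3 genes of smallest adjusted p per list in 3 comparisons, and the 3 genes of highest correlation per member (log2 CPM with a prior count of 2), leaving out clone and prediction names. One result that this rule would name is not reported here. Exon lengths are unions of GENCODE basic exons, and promoters are from RefSeq. Alternatives were RLE and upper-quartile factors, DESeq2 1.42.0, a filter of 1 CPM in 3 libraries, no filter, an adjusted p under 0.01, a replicate block, only the compared groups, protein-coding nuclear genes only, and leaving out each library. The setting with no filter was the reported fit itself, since the filter removed 0 genes, so its agreement was fixed in advance. The procedure was tested on simulated data in which a small part of the genes differed, in a single group. Far more genes were called in these data, so that test does not cover their setting.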

Additional observations from a re-analysis of the deposited data

Results flagged for a closer look

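For 5 of the 6 genes the effect of doxorubicin on the log2 scale differed between cells with the Hif1a siRNA and cells without it, by edgeR's test of the difference itself. The effect after the siRNA minus the effect without it was -3.05 for Cdca7, where doxorubicin went with a higher level in cells without the siRNA and a lower level after it. It was -1.35 for Hells, which was lower with doxorubicin in both settings, and -0.79 for Uhrf1, which was higher in both. It was -0.37 for Dnmt1 and -0.92 for Dnmt3b, whose value went to -0.57 and lost its call without Control replicate 1. Over all 12721 genes, 26.3% were called positive and 32.3% negative in this difference. The 6 genes were chosen with their levels in these groups in view, so the differences are descriptions. In the S-phase list the difference was called negative for 23 of 26 genes, and its part in these values was not tested. The baseline without the siRNA is untreated cells, so the siRNA procedure itself cannot be told apart from the loss of Hif1a in these differences. The harvest time of Hif1a_siRNA is not stated separately, so time after the siRNA may differ as well.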

How the results depend on the processing

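Counts of called genes were within 1.5 times the reported count in all 222 values under the alternatives run, for the 6 genes and for the 44 genes of the 4 related lists pooled. Counts of single lists moved more: between Hif1a_siRNA and NC_siRNA a fit of only these groups called 7 methyl-CpG binding proteins lower in place of 4 and 4 partners lower in place of 2, and leaving out single libraries gave 2 to 4 and 1 to 2. Of 6427 fold changes of list genes under the alternatives, 175 lost and 114 gained a call and 0 reversed. Of 624 fold changes of the 6 genes under these alternatives, 617 moved by less than the replicate spread, 7 moved by more, and 0 reversed a called direction. The largest shift was 0.35, for Dnmt3b without Control replicate 1. All 756 values for the 54 named pairs of list gene and comparison kept their direction and their side of the threshold. The totals in this paragraph include the setting with no filter, which repeats the reported fit and so could not differ from it.

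Calls changed mainly for Dnmt3b. Between Hif1a_siRNA_Dox and Dox its call was lost under upper-quartile factors (0.54), without Dox replicate 1 (0.66) or 3 (0.36), and without any 1 of the 3 Hif1a_siRNA_Dox libraries (0.47 to 0.63). Its difference of doxorubicin effects also lost its call without Hif1a_siRNA replicate 2, Dox replicate 1 or 2, or Hif1a_siRNA_Dox replicate 1 or 2 (-0.87 to -0.76). For Dnmt3a the same difference gained a call under RLE factors and DESeq2 (0.34), with protein-coding nuclear genes only (0.32) and without Control replicate 1 (0.33), and Hif1a_siRNA against Control gained one with only the compared groups (-0.17).

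No pairing of the libraries by replicate number was seen. Over 30 pairs of the same number from different groups, residuals from group means correlated at -0.16 to 0.09. With 3 libraries in each group this check cannot exclude shared cultures or batches. With the replicate block, the 6 genes gave 5, 4, 5, 6, 6, 3 and 5 calls in the 7 comparisons in the order reported, and Dnmt3b between Hif1a_siRNA_Dox and Dox (0.59) was the call lost. The 44 list genes gave 30, 33, 34, 39, 41, 23 and 30. Depth limits Dnmt3b and Cdca7 in particular, with 20 to 61 and 33 to 42 reads in Control.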
